A study of Homo sapiens with 6 samples.

Results

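MHC class I molecules carry peptides of cytosolic proteins to the cell surface, where cytotoxic T cells and natural killer cells read them. A class I molecule is a heavy chain paired with the light chain β2-microglobulin. Peptides made by the proteasome are pumped into the endoplasmic reticulum by the TAP transporter, trimmed by aminopeptidases and loaded with the help of tapasin, and NLRC5 is the transactivator that assembles on class I promoters. Neuroblastoma cells of the adrenergic, MYCN-amplified kind are known for little class I on their surface.

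The genes described were 9 of the 60676 genes in the deposited tables, taken by Ensembl identifier for the symbols HLA-B, HLA-C and HLA-E (heavy chains), B2M (light chain), TAP1 and TAP2 (the transporter subunits), TAPBP (tapasin), ERAP1 (trimming aminopeptidase) and NLRC5. RNA came from SK-N-BE, a human neuroblastoma line, kept for 1.5 days in differentiation medium with 10 μM retinoic acid. All cells were transfected, with 3 libraries from cells given a control siRNA of scrambled sequence (si-SCR) and 3 from cells given a pool of siRNAs that target CyCoNP, a long noncoding RNA (si-CyCoNP), and retinoic acid was shared by both groups. The labels do not say whether replicates were separate cultures, so p-values measure the spread between these libraries, which may be technical. Everything rests on 1 cell line, and in bulk RNA fewer cells expressing a gene and less RNA per cell cannot be told apart.

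The libraries held between 3762009 and 4799407 counted fragments. The depleted RNA was checked first. LINC02381, the gene of CyCoNP, had 274, 208 and 315 counts in si-SCR against 20, 30 and 12 in si-CyCoNP, a log2 fold change (log2FC) of -3.78 (SE 0.190, adjusted p = 6.84e-14 in edgeR's quasi-likelihood test). On the first principal component si-SCR replicate 3 lay at -20.9, the si-SCR library nearest to the si-CyCoNP libraries, which lay from 29.2 to 32.2 while the other si-SCR libraries lay at -34.8 and -35.5, and the fits of the 6 genes tested and of the pathway counts were also run without it. All 14 adrenergic neuroblastoma markers examined were expressed, with a summed level of 2862 to 3365 FPKM in si-SCR and 2250 to 2450 FPKM in si-CyCoNP. Upon depletion 11 of them were lower and 1 higher (adjusted p under 0.05), which is 85.7% beside 28.4% of all genes tested, where 14.2% were lower. GATA2 and PHOX2A, transcription factors of the adrenergic state, and CHGB, a granule protein, had log2FC values of -1.06, -1.13 and -1.01 (adjusted p = 9.24e-11, 4.49e-10 and 1.95e-09 in edgeR). The higher marker was MYCN, with a log2FC of 0.84 (adjusted p = 2.65e-09 in edgeR). TH and ISL1 did not pass, with log2FC values of -0.13 and -0.18 (adjusted p = 0.378 and 0.381 in edgeR). The part of these marker changes in the class I values was not tested. FPKM is the fragment count scaled for gene length and library total, and is the scale on which levels of different genes are compared here. Of 10 leukocyte markers, 7 had no count in any library, and CD14 was the single one above 3 counts in a library, with 11, 12 and 13 counts in si-SCR against 43, 31 and 17 in si-CyCoNP (log2FC 1.21, adjusted p = 0.0100 in edgeR, and 0.95 with 0.0924 without si-CyCoNP replicate 1).

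Of the 9 genes, 6 lie in the MHC region of chromosome 6 (GRCh38, GENCODE v44). HLA-E is at positions 30489509 to 30494194, HLA-C at 31268749 to 31272130, HLA-B at 31353872 to 31367067, TAP2 at 32821833 to 32838739, TAP1 at 32845209 to 32853816 and TAPBP at 33299694 to 33314284. B2M is on chromosome 15 from 44711358 to 44718851, ERAP1 on chromosome 5 from 96760810 to 96808100 and NLRC5 on chromosome 16 from 56989485 to 57083531. Each is protein coding.

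Promoter sequence is shown before the values because genes that hold the same short control motifs were measured at very different levels. Promoters of 7 of the 9 genes were in the RefSeq table (GRCh38.p14, 250 bases before to 50 after each start), with 9 promoters in all since TAP1 and ERAP1 had a pair each. HLA-E and NLRC5 had no entry. Class I promoters are known for an X2 box bound by CREB and ATF factors and a CCAAT box bound by NF-Y, the platform on which NLRC5 assembles. The X2 core (TGACGT or TGACGC, both strands) was found in 3 of the 7 genes, HLA-B, HLA-C and TAP2, and in 16.1% of all 35116 promoters. The 2 windows below, with the core in capitals, are on the minus strand at chr6:31357268-31357297 and chr6:31272180-31272209.
HLA-B: ccaggatactcgTGACGCgtccccacttcc
HLA-C: cctgaatactcaTGACGCgtccccaattcc
Both genes also held a CCAAT box (CCAAT, both strands) whose first base is 56 bases before the start, shown in capitals at chr6:31357218-31357247 and chr6:31272131-31272160. Further CCAAT matches, on either strand, began 81 and 74 bases before the start in HLA-B. In HLA-C they began 192, 95 and 80 bases before it. Which of these matches, if any, is the NF-Y box of the NLRC5 platform was not tested. A CCAAT box was found in 5 of the 7 genes and in 34.6% of all promoters.
HLA-B: tatctagagaagCCAATcagcgtcgccgcg
HLA-C: gttctagagaagCCAATcagcgtctccgca
HLA-B alone of the 7 held the class I NF-κB site as searched (the 10 letters in capitals, both strands), which 0.0769% of all promoters held, at chr6:31357337-31357366.
HLA-B: gcgcagcgttGGGGATTCCCcactcccctg

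The core of the interferon-stimulated response element, which IRF complexes bind (GAAA, any 2 bases, GAAA, both strands), was found in B2M, TAP1, TAP2, TAPBP and ERAP1, that is in 5 of the 7 genes and in 3.57% of all promoters. In B2M, TAP1 and TAPBP a second match overlapped the one shown. The windows are at chr15:44711363-44711392 on the plus strand and, on the minus strand, at chr6:32853819-32853848, chr6:32838778-32838807 and chr6:33314079-33314108, with the match in capitals, which in TAP1 reads on the opposite strand.
B2M: gagactctaaGAAAAGGAAActgaaaacgg
TAP1: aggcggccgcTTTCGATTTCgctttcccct
TAP2: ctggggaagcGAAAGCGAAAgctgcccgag
TAPBP: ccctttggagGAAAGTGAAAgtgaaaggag
The GAS motif (TTCNNNGAA, palindromic, 7.66% of all promoters) was found in TAP1 only among these genes, and the E-box CACGTG (7.26%) in none of them. A match describes these letters in this window and not a bound site.

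The levels of the 9 genes differed widely. B2M stood first with a mean of 58.9 FPKM over the 6 libraries, above 96.0% of the 13966 genes tested, and TAPBP (13.4 FPKM) and HLA-C (8.74 FPKM) stood above 76.9% and 64.9% of them. ERAP1 followed at 3.47 FPKM. In these first 4 places the lowest library of each gene exceeded the highest library of the next. HLA-E (1.59 FPKM, from 0.644 to 2.06) and TAP2 (1.04 FPKM, from 0.718 to 1.42) had overlapping ranges and stood above 18.1% and 7.41% of the genes tested. NLRC5, HLA-B and TAP1 were lowest, at 0.181, 0.0628 and 0.0410 FPKM, and each overlapped the next.

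**Figure D1:**
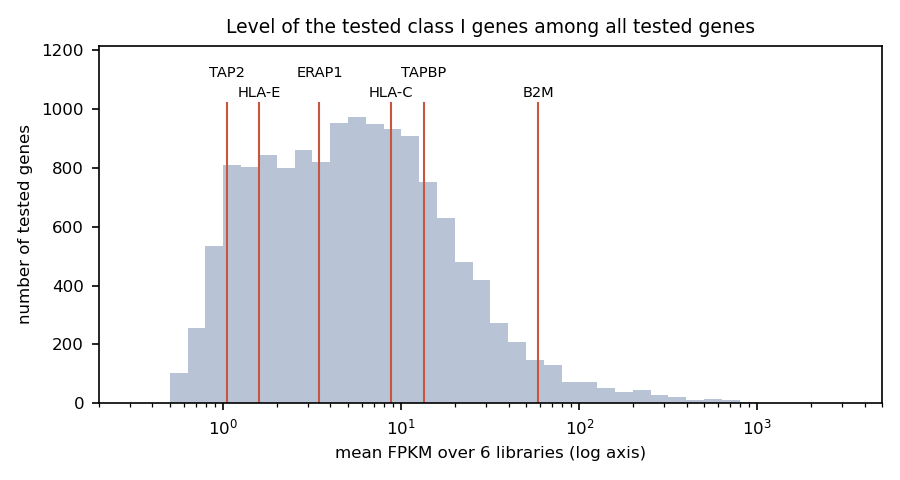
Histogram of the mean FPKM over the 6 libraries (log axis) for the 13966 genes tested, with a red line at each of the 6 class I genes tested. The few genes above a log10 FPKM of 3.5 are not drawn. B2M lies in the upper tail at 58.9 FPKM, TAPBP and HLA-C right of the middle, and HLA-E and TAP2 near the lower edge.

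Among the 6 genes that could be tested, none passed an adjusted p of 0.05 upon CyCoNP depletion, against 28.4% of all 13966 genes, where 14.2% were higher and 14.2% lower (edgeR's quasi-likelihood test, with 0 of 6 in DESeq2 too). At an unadjusted p under 0.05 there was 1 of 6, B2M, against 37.4% of all genes. No gene of the 6 was called, that is, also beyond a log2FC of 1, as 5.26% of all genes were, 2.28% higher and 2.98% lower. HLA-C and TAPBP had positive log2FC values, and B2M, HLA-E, TAP2 and ERAP1 negative ones, with a median of -0.21 beside 0.01 over all genes tested. The genes passed the filter at a mean of at least 1 FPKM in either group, and HLA-B, TAP1 and NLRC5 did not reach it. TAP2 reached it in si-SCR alone.

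Confidence intervals give the sizes of change that remain possible for each gene. For 4 of the 6 genes, B2M, TAPBP, HLA-C and ERAP1, the 95% interval lay between -1 and 1, as did that of 66.2% of all genes tested. The intervals of HLA-E and TAP2 reached beyond -1, so that a decrease of more than 2-fold could not be told from no change for these low genes.

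**Figure D2:**
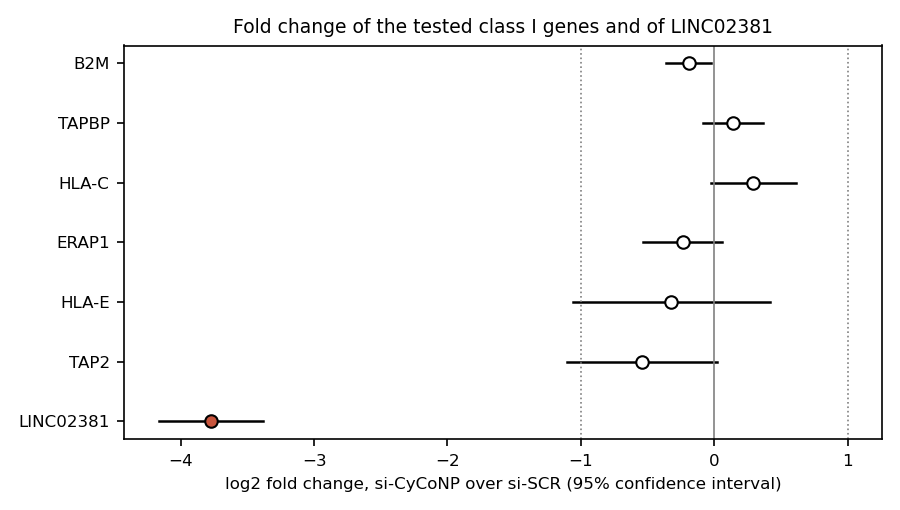
Log2 fold change of si-CyCoNP over si-SCR with its 95% confidence interval (edgeR) for the 6 class I genes tested and for LINC02381. Filled points have an adjusted p under 0.05 and dotted lines mark a log2FC of 1 either way. LINC02381 lies at -3.78, while the class I genes lie between -0.54 and 0.29.

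Among the heavy chains, HLA-C, a classical class I chain that presents peptide to T cells and also engages killer cell receptors, was the most abundant of the 3 members. It had 80, 66 and 102 counts in si-SCR against 125, 99 and 102 in si-CyCoNP, which the authors' table gives as 7.43, 6.998 and 8.51 against 10.4, 9.29 and 9.81 FPKM. Every si-CyCoNP library lay above every si-SCR library, and groups that did not overlap were also found in 40.2% of all genes tested. The means were 7.65 ± 0.777 and 9.83 ± 0.548 FPKM (SD, n = 3), with a log2FC of 0.29 (SE 0.155) and a 95% interval from -0.03 to 0.61. HLA-C did not pass the threshold (adjusted p = 0.173 in edgeR). On the FPKM scales it passed (limma on log2(FPKM + 1), adjusted p = 0.0473, on log2(FPKM + 0.1), 0.0493), within a range of 0.0473 to 0.373 over the 14 alternatives.

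HLA-E, a nonclassical chain that presents leader peptides of other class I chains to natural killer cells, had 24, 19 and 22 counts in si-SCR against 23, 8 and 25 in si-CyCoNP. Replicate 2 of si-CyCoNP was the low library and the other two lay at the level of si-SCR, so the groups overlapped. The levels were 1.74 ± 0.169 and 1.45 ± 0.729 FPKM (SD, n = 3), and the log2FC was -0.32 with a 95% interval from -1.06 to 0.42 (adjusted p = 0.551 in edgeR). Without si-CyCoNP replicate 2 it was 0.025 (adjusted p = 0.967 in edgeR), so the sign rests on that library. Over the alternatives its adjusted p ranged from 0.288 to 0.967.

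HLA-B, a classical chain like HLA-C, was close to undetected. It had 0, 0 and 1 count in si-SCR against 0, 4 and 0 in si-CyCoNP, and 3 counts correspond to 0.205 to 0.261 FPKM of this gene, depending on the library. No fold is given. HLA-B overlaps the annotated genes MIR6891 and DHFRP2 on the same strand, and fragments that fall in both genes are counted for neither. Heavy chain genes also differ between people at many bases and resemble one another, and fragments were counted only where they mapped uniquely within a limit on mismatches to the reference. How much of HLA-B, HLA-C and HLA-E was lost in this way was not tested, so their levels are uncertain. HLA-B and HLA-C hold the same X2 core and CCAAT box at nearly the same distance from the start (the windows printed above), but HLA-B summed to 1 and 4 counts over the si-SCR and the si-CyCoNP libraries and HLA-C to 248 and 326.

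Summed over the 3 heavy chain members, the level was 9.34, 8.73 and 10.2 FPKM in si-SCR against 12.0, 10.3 and 11.9 FPKM in si-CyCoNP. The groups did not overlap, by a narrow gap between si-SCR replicate 3 and si-CyCoNP replicate 2 (exact permutation test, two-sided, p = 0.1, the smallest that 3 against 3 can give). This gap rests on HLA-B, which gave 0.309 FPKM of the si-CyCoNP replicate 2 sum from 4 counts, near the floor. Without HLA-B the groups overlap. HLA-C made up 79.5% to 90.7% of the sum in each library, so the sum largely restates HLA-C. On CPM after TMM scaling, which corrects for library composition, the groups overlapped (p = 0.2, exact permutation). This sum is not all class I heavy chain RNA, since the other class I and class I-like genes described below held more.

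B2M, the light chain of every class I molecule, was the most abundant member. It had 1521, 1400 and 1882 counts in si-SCR against 1572, 1349 and 1582 in si-CyCoNP, or 58.3, 61.2 and 64.7 against 53.9, 52.2 and 62.8 FPKM. Replicates 1 and 2 of si-CyCoNP lay below all si-SCR libraries and replicate 3 within their range. The level was 61.4 ± 3.24 FPKM in si-SCR and 56.3 ± 5.67 in si-CyCoNP (SD, n = 3), and the log2FC was -0.19 (SE 0.0835) with a 95% interval from -0.36 to -0.02, or 0.777 to 0.986 of the si-SCR level. After adjustment it did not pass (adjusted p = 0.0896 in edgeR). Without si-CyCoNP replicate 3 it was -0.29 and passed (adjusted p = 0.0240 in edgeR), and over the 14 alternatives the adjusted p ranged from 0.0192 to 0.340.

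Both subunits of the peptide transporter were scarce. TAP2 had 27, 34 and 38 counts in si-SCR against 22, 25 and 26 in si-CyCoNP, which is 0.985, 1.42 and 1.245 against 0.718, 0.922 and 0.983 FPKM. The groups did not overlap, with si-CyCoNP lower, though replicate 3 of si-CyCoNP and replicate 1 of si-SCR nearly touched. On CPM after TMM scaling, groups did not overlap in 2 of the 6 class I genes tested, beside 40.2% of all genes tested. The means were 1.22 ± 0.217 and 0.875 ± 0.139 FPKM (SD, n = 3). The log2FC was -0.54, the furthest from 0 among the 6 genes, with an SE of 0.274 and a 95% interval from -1.10 to 0.02 (adjusted p = 0.151 in edgeR). TAP2 reached the filter of 1 FPKM in si-SCR alone, and such a selection favours a lower value in si-CyCoNP. Over the alternatives its adjusted p ranged from 0.117 to 0.431. The count of TAP2 is less certain, since ENSG00000250264 overlaps it on the strand they share. TAP1, which must pair with TAP2 to form the pump, had 1, 2 and 1 counts in si-SCR against 1, 0 and 0 in si-CyCoNP, where 3 counts correspond to 0.130 to 0.166 FPKM, and no fold is given.

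TAPBP, or tapasin, which bridges the transporter and the empty heavy chain, had 297, 204 and 312 counts in si-SCR against 372, 281 and 309 in si-CyCoNP. Its FPKM values were 13.7, 10.7 and 12.9 against 15.3, 13.1 and 14.7, with overlap between si-SCR replicate 1 and si-CyCoNP replicate 2. The log2FC was 0.14 with a 95% interval from -0.09 to 0.37 (adjusted p = 0.382 in edgeR), and it was 0.06 without si-SCR replicate 2, the lowest library.

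ERAP1, the aminopeptidase that trims peptides in the endoplasmic reticulum, had 106, 107 and 164 counts in si-SCR against 127, 109 and 107 in si-CyCoNP. The si-CyCoNP libraries were close together at 3.33, 3.23 and 3.25 FPKM, and the si-SCR libraries spread from 3.11 over 3.58 to 4.32 FPKM, so the groups overlapped. The log2FC was -0.23 with a 95% interval from -0.53 to 0.06 (adjusted p = 0.250 in edgeR), and -0.12 without si-SCR replicate 3, the highest library.

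NLRC5, the transactivator of class I genes, had 9, 9 and 14 counts in si-SCR against 6, 8 and 12 in si-CyCoNP, or 0.200 ± 0.0340 and 0.162 ± 0.0670 FPKM (SD, n = 3). The groups overlapped. NLRC5 was below the filter, and the fit without a filter gave a log2FC of -0.38 (SE 0.479, adjusted p = 0.646 in edgeR).

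**Figure D3:**
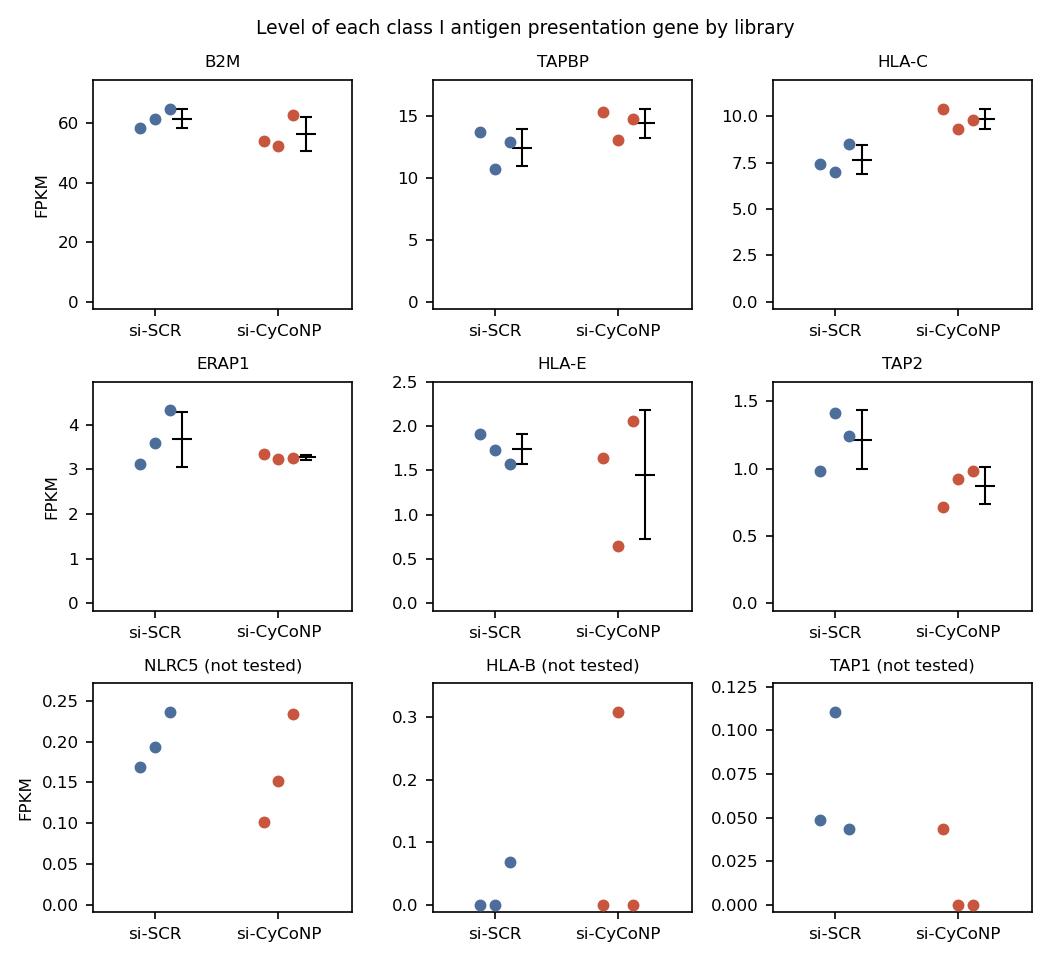
FPKM of the 9 class I genes in each library, ordered by level, with replicates 1 to 3 from left to right in each group. Black bars are the mean and SD of 3 libraries for the 6 genes tested. HLA-C and TAP2 show groups that do not overlap, in opposite directions. Groups did not overlap in 40.2% of all genes tested (CPM after TMM scaling). HLA-E shows 1 low si-CyCoNP library, and HLA-B and TAP1 lie at or near 0.

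The other genes of the pathway were examined to see whether the surroundings of the class I genes changed. In the 5 lists together 5 genes were higher and 7 lower at an adjusted p under 0.05, which is 12 of 38 tested or 31.6%, near the 28.4% of all genes. Of 9 other class I and class I-like heavy chains 2 passed the filter, and 7 had at most 3 counts in every library, among them HLA-F, HLA-G, MICA and MICB. Their summed level was 57.2 to 62.6 FPKM in si-SCR and 59.0 to 59.6 in si-CyCoNP. FCGRT, the heavy chain of the neonatal Fc receptor, which pairs with B2M to recycle antibodies and carries no peptide, was lower. It had 63, 51 and 54 counts against 21, 37 and 24, with a log2FC of -1.14 (SE 0.254, adjusted p = 0.00111 in edgeR), and -0.92 without si-CyCoNP replicate 1.

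Of 16 genes of peptide supply and loading, 12 were tested, with 2 higher, 1 lower (25.0% beside 28.4% of all genes) and a median log2FC of -0.07. LNPEP, an endosomal aminopeptidase related to ERAP1, fell from 5.66 ± 0.669 to 2.87 ± 0.521 FPKM (SD, n = 3), a log2FC of -1.04 (adjusted p = 2.23e-07 in edgeR) that ranged from -1.21 to -0.95 when single libraries were left out. POMP, an assembly factor of the proteasome, rose by 0.28 (adjusted p = 0.0179 in edgeR), and CALR, the loading complex chaperone calreticulin, by 0.27 (adjusted p = 0.0368 in edgeR). Both are less firm. POMP did not pass without si-SCR replicate 2, si-CyCoNP replicate 1 or si-CyCoNP replicate 3 (adjusted p from 0.0688 to 0.0728), and CALR did not in 8 of 14 alternatives, with adjusted p-values up to 0.262 without si-CyCoNP replicate 3. PSME1, an activator subunit of the proteasome, had a log2FC of -0.35 that did not pass (adjusted p = 0.0835 in edgeR). The immunoproteasome subunits PSMB8, PSMB9 and PSMB10, which replace the constitutive catalytic subunits under interferon, had at most 5 counts in any library, and PSMB9 none.

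Of 22 regulators of class I transcription, 19 were tested, with 3 higher, 3 lower (31.6% beside 28.4% of all genes) and a median log2FC of 0.02. MYCN, the oncogene amplified in this line and long linked to low class I in neuroblastoma, rose from 428 ± 19.0 to 806 ± 57.7 FPKM (SD, n = 3), with 446, 409 and 430 FPKM in si-SCR against 872, 766 and 779 in si-CyCoNP. Its log2FC was 0.84 (adjusted p = 2.65e-09 in edgeR). NFYA and NFYB, subunits of the CCAAT-binding factor NF-Y, rose by 0.46 (adjusted p = 0.00280 in edgeR) and 0.36 (adjusted p = 0.0348 in edgeR). NFYC, another subunit of NF-Y, went the other way, with a log2FC of -0.33 that did not pass (adjusted p = 0.0879 in edgeR). The NFYB call was lost in DESeq2, without a filter, and when si-SCR replicate 1 or 2 or si-CyCoNP replicate 1 or 3 was left out, with adjusted p-values up to 0.174.

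Components of interferon γ signalling, which induces class I genes, were lower in part. JAK1, the kinase shared by both kinds of interferon receptor, fell from 5.76 ± 0.426 to 3.41 ± 0.416 FPKM (SD, n = 3), a log2FC of -0.82 (adjusted p = 3.79e-06 in edgeR). IFNGR1, a receptor chain, fell by 0.52 on the log2 scale (adjusted p = 0.00882 in edgeR), a call lost without si-SCR replicate 2 (0.0522) and on both FPKM scales (0.0779 and 0.0781 in limma). IFNGR2 and the Polycomb subunits EZH2, SUZ12 and EED, which can silence class I genes, did not pass, with log2FC values of 0.21, 0.06, 0.03 and 0.02.

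**Figure D4:**
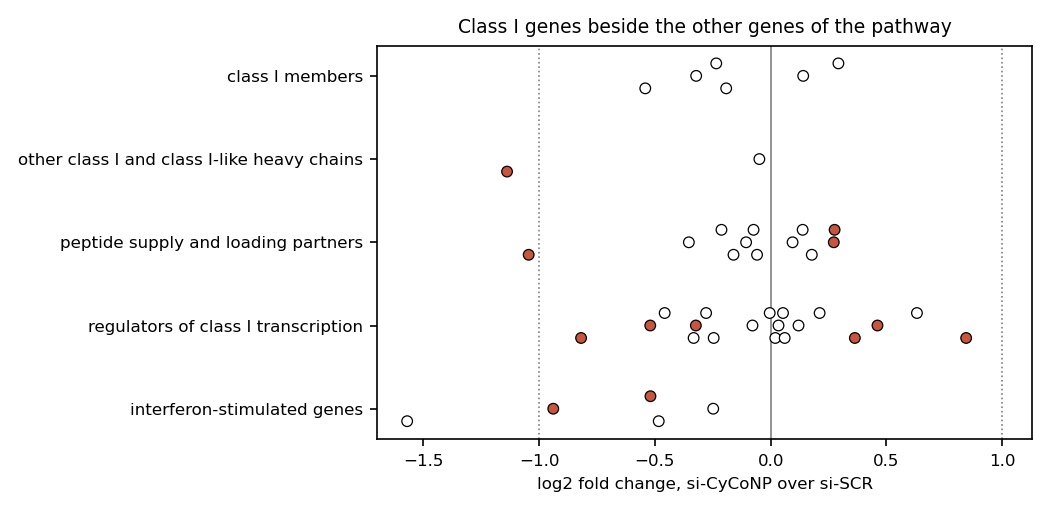
Log2 fold change of si-CyCoNP over si-SCR for each tested gene of the class I members and of 4 lists of related genes, with filled points at an adjusted p under 0.05 and dotted lines at a log2FC of 1 either way. No member is filled, of the filled points FCGRT and LNPEP lie beyond -1, and MYCN is the rightmost filled regulator. None of the 5 tested interferon-stimulated genes lies above 0, and 2 of them are filled.

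Of 30 interferon-stimulated genes, 5 were tested, with a median log2FC of -0.52, and 13 had at most 3 counts in every library. Of these 5, 2 were lower and none higher (40.0% beside 28.4% of all genes, where 14.2% were lower), a share that rests on few genes. ISG15 was among the 5 through si-SCR alone, with a mean of 2.80 FPKM there against 0.956 in si-CyCoNP. Such a selection favours a lower value in si-CyCoNP. OAS3, an antiviral enzyme that senses double-stranded RNA, fell from 14.6 ± 1.37 to 8.01 ± 1.30 FPKM (SD, n = 3), a log2FC of -0.94 (adjusted p = 1.69e-07 in edgeR). STAT2, a transcription factor of type I interferon signalling, fell by 0.52 on the log2 scale (adjusted p = 0.0434 in edgeR), a call that was lost in 9 of 14 alternatives, up to an adjusted p of 0.245 without si-SCR replicate 3. ISG15 had 7, 11 and 13 counts against 4, 6 and 1, and OAS1 62, 53 and 76 against 42, 58 and 46, and neither passed (adjusted p = 0.0516 and 0.0808 in edgeR). ISG15 passed without si-SCR replicate 1 (adjusted p = 0.0424 in edgeR) or si-CyCoNP replicate 2 (0.0388), and OAS1 without si-CyCoNP replicate 2 (0.0439). Over the alternatives their adjusted p-values ranged from 0.0388 to 0.201 and from 0.0428 to 0.323. Class II genes and their invariant chain CD74 were near absent. Of these 9 genes none was tested, 5 had no count in any library, and HLA-DMA reached the highest count, 7.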

How the data were processed

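Total RNA of 6 libraries was sequenced by the authors as paired ends after ribosomal RNA depletion with a stranded kit. Per the labels and the study's methods, reads were trimmed (Trimmomatic 0.39, Cutadapt 3.2), ribosomal reads removed (Bowtie2 2.4.2) and the rest aligned with STAR 2.7.7a to GRCh38. The deposited counts are raw uniquely mapping fragments per Ensembl gene, and the deposited FPKM values, made by the authors, scale them by gene length and library total. Both tables gave the same gene length (within 0.1 percent) for each of the 22586 genes counted in 2 or more libraries. Identifiers were paired with symbols through a GENCODE table, which matched 60357 of 60676.

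Genes with a mean of at least 1 FPKM in either group (13966) were compared with TMM scaling and the quasi-likelihood test of edgeR 4.0.16 (R 4.3.3), with Benjamini-Hochberg adjustment over all genes tested. The study's methods name DESeq2, run as an alternative (1.42.0), beside limma 3.58.1 on log2(FPKM + 1) and log2(FPKM + 0.1), DESeq2 size factors, library totals alone, edgeR's default filter or no filter, the replicate number as a block, and leaving out each library. Standard errors are the log2 fold change over the root of the F statistic. The floor of 3 counts was a fixed setting and was not estimated from counting error or PCR duplication.

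All members are named. From each pathway list the genes with the 4 smallest p-values were to be given. The values of 3 list genes are not reported here. They enter only counts and sums, and further list genes were named after their values were seen. The members and lists were chosen with earlier results of these data known.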

Additional observations from a re-analysis of the deposited data

How the results depend on the processing

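The number of class I genes past an adjusted p of 0.05, 0 as reported, was 1 with the replicate block (B2M), 1 in limma at a pseudocount of 1 FPKM and 1 at 0.1 (HLA-C in both), and 0 to 1 when single libraries were left out. HLA-E turned to a log2FC of 0.025 without si-CyCoNP replicate 2, within a range of -0.65 to 0.025 when single libraries were left out. None of the other 5 class I genes tested changed direction under the 14 alternatives, and none was called beyond a log2 fold change of 1. Genes called among all genes, 319 higher and 416 lower as reported, were 207 and 180 on log2(FPKM + 1). The pathway genes, 5 higher and 7 lower, were 3 higher in DESeq2, 12 lower with the replicate block (ISG15 and OAS1 among them, adjusted p = 0.0459 and 0.0428 in edgeR) and 4 lower on each FPKM scale, and 2 to 7 higher and 5 to 8 lower when single libraries were left out, with 2 higher without si-SCR replicate 2 or si-CyCoNP replicate 3. The causes were not tested. LINC02381 stayed between -4.16 and -2.90, past the threshold, and the summed heavy chain members stayed higher, with log2 ratios from 0.20 to 0.35. The lowest of these ratios, 0.20, was the one on CPM after TMM scaling, where the groups overlapped. Same-numbered libraries shared little (correlations of deviations 0.0907, 0.0727 and 0.108), so the numbers were not taken as pairs, although each si-SCR library correlated best with its own number. Libraries of unlike number gave -0.0666 to -0.0229. With the block the SE of B2M was 0.0683, against 0.0835 in the main fit. Pairing by number therefore remains possible, and the result of 0 class I genes rests on a fit without it. Counts of 8 to 38 per library limit HLA-E and TAP2, and HLA-B and TAP1 lay near the floor.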

Other observations

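The genes that surround the class I members were also examined. The interval on chromosome 6 from the first base of HLA-E to the last base of TAPBP (30489509 to 33314284, GRCh38) holds 6 of the 9 members, and 64 other genes in it were tested. Of these, 9 were higher and 5 lower at an adjusted p under 0.05 (edgeR), which is 21.9% beside 28.4% of all genes tested, and none was called beyond a log2FC of 1. Their median log2FC was -0.01. PPP1R18, a phosphatase regulatory subunit, rose from 26.2 ± 2.44 to 43.9 ± 2.94 FPKM (SD, n = 3), a log2FC of 0.68 (adjusted p = 1.07e-06 in edgeR). SLC39A7, a zinc transporter, rose by 0.54 (adjusted p = 0.000147 in edgeR), and RPS18, a ribosomal protein, fell by 0.37 on the log2 scale (adjusted p = 0.000366 in edgeR). These 3 genes, the ones with the smallest p-values in the interval, were singled out after their values were seen.

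Markers of the mesenchymal neuroblastoma state, in which class I is known to be higher than in the adrenergic state, moved in both directions. Of 13 genes 8 were tested, with 3 higher and 3 lower (75.0% beside 28.4% of all genes). FN1 and FOSL1 passed the filter through si-CyCoNP alone, with means of 5.41 and 1.28 FPKM there against 0.697 and 0.152 in si-SCR. Such a selection favours higher values in si-CyCoNP, so the share of higher genes is no measure of the list. FN1, the matrix protein fibronectin, rose by 2.88 (adjusted p = 1.28e-13 in edgeR) and IFI16, a sensor of DNA, by 1.21 (adjusted p = 0.000426 in edgeR). FOSL1, an AP-1 transcription factor, was higher from a level near the floor, with 1, 0 and 3 counts in si-SCR against 5, 14 and 12 in si-CyCoNP (adjusted p = 0.00865 in edgeR). In the other direction, SNAI2 and FOSL2, transcription factors of that state, fell by 1.27 and 1.12 on the log2 scale (adjusted p = 9.76e-06 and 1.88e-07 in edgeR). VIM, the intermediate filament vimentin, fell by 0.43 (adjusted p = 0.000413 in edgeR), and PRRX1, a defining factor of the state, had no count in any library. The summed level of the 13 genes was 117 to 143 FPKM in si-SCR and 112 to 116 FPKM in si-CyCoNP, and its part in the values of the class I genes was not tested.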
